A study of Nothobranchius furzeri with 8 samples.

Results

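This account follows 4 entries of the *Nothobranchius furzeri* gene annotation whose names belong to the molecules that organise the presynaptic side of a synapse. They are Nfu_g_1_012400 and Nfu_g_1_009720, both named NRXN3, Nfu_g_1_012454, named CBLN1, and Nfu_g_1_012570, 1 of 3 entries named RIMS1. They are 4 of the 26739 entries in the count table and of the 19517 entries with at least 1 count in every library. The entries were picked with their difference between wild and captive fish already known, so their values below are a description and carry no p-value. Whole brains of 8 male turquoise killifish, a short-lived annual fish of African ponds, were profiled by poly(A) RNAseq. The 4 wild fish belonged to population A41, were 39 days post hatching (dph) by their labels, and were caught in the pond by seine and dissected on site. The 4 captive fish belonged to the laboratory strain MZM-0410, were 35 dph by their labels, and were housed singly, fed *Chironomus* larvae and killed fasted. Wild brains were kept in RNAlater before freezing, whereas captive brains were put on dry ice at once. Origin, strain, diet, age and storage therefore differ together between the groups, and their parts in any difference cannot be told apart. The study's library table also lists lower RNA integrity for the wild brains, a further property that cannot be told apart from origin here.

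Neurexins, the products of the NRXN genes, are adhesion receptors on the presynaptic membrane that bind partners across the synaptic cleft and so specify and organise the contact. Cerebellin 1, the product of CBLN1, is a secreted ligand of the C1q family. In mouse it is released by cerebellar granule cells and bridges presynaptic neurexin and the postsynaptic membrane of Purkinje cells. RIM1, the product of RIMS1, is a scaffold inside the terminal: it holds the active zone together, tethers synaptic vesicles through RAB3 and brings voltage-gated calcium channels to the release site. In the order ligand, receptor, scaffold, these molecules run from the cleft to the inside of the terminal.

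The names are the human gene names given in the study's supplementary tables, which also call Nfu_g_1_012400 NRXN3B and Nfu_g_1_012570 RIMS1A by their fish symbols. Nfu_g_1_009720 and Nfu_g_1_012454 are named only in a table whose genes were chosen in part on these same 8 libraries. Where CBLN1 is listed among the 4 entries, only Nfu_g_1_012454 is meant. The entry whose fish symbol is CBLN1 is another, Nfu_g_1_003056. The transcript models of the 4 entries are 3969 nt (Nfu_g_1_012400), 303 nt (Nfu_g_1_009720), 624 nt (CBLN1) and 1944 nt (RIMS1A) long. If wholly coding, the model of 303 nt would hold at most 101 amino acids, so it can carry only a short piece of a neurexin. On the same terms the RIMS1A model would hold at most 648 amino acids and that of Nfu_g_1_012400 at most 1323. The longest entries of the same names have models of 6551 nt (RIMS1) and 7836 nt (NRXN3). Whether the shorter models cover a whole protein was not tested, so their levels may be those of partial models. The reads were mapped with 1 alignment kept per read, and reads that fit several near-identical copies can therefore be placed on the wrong copy. Each level of a copy below is uncertain to that extent. Total counts per library were 13923243 to 14541119 for wild fish and 11814586 to 14393377 for captive ones. Levels are given as CPM, read counts relative to the library total after scaling by TMM (the trimmed mean of M-values), and between genes as RPKM, the same values per kilobase of transcript.

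The ligand, CBLN1 entry Nfu_g_1_012454, stood higher in wild brains. It had 199.9, 229, 181 and 232 CPM in the wild brains, against 149.6, 120.1, 120.4 and 115 CPM in the captive brains. Every wild brain lay above every captive brain, and the nearest 2 fish, at 181 and 149.6 CPM, were still apart. The means were 210.5 ± 24.3 CPM in wild brains and 126.3 ± 15.7 in captive ones (SD, n = 4 each), a log2 fold change of 0.74 (SE 0.10), or 1.67-fold. Captive fish MZM_0410_124 stood apart from the other 3 captive fish, and without it the log2 fold change was 0.81. These levels rest on 2639 to 3344 counts per wild library and 1495 to 1737 per captive library. The spread between fish, with a coefficient of variation of 11.53% in wild and 12.5% in captive brains, was larger than counting error, which alone gives 1.82% and 2.49% in the same groups.

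The receptor entry Nfu_g_1_012400 (NRXN3B) stood lower in wild brains. It had 107, 116, 111 and 103 counts in the wild libraries, against 372, 482, 426 and 510 in the captive ones. On the scaled level this was 7.57, 8.11, 7.62 and 7.14 CPM in wild brains, against 32.04, 36.8, 34.3 and 35.6 CPM in captive brains. Every wild brain thus held less than every captive brain, and the fish of a group were nearly alike. The means were 7.61 ± 0.40 CPM in wild brains and 34.7 ± 2.04 in captive ones (SD, n = 4 each), a log2 fold change of -2.19 (SE 0.08), or 4.56-fold lower. The coefficient of variation in wild brains, 5.22%, was below the 9.57% that counting error alone gives on average, so no spread between these 4 fish beyond counting could be seen at this depth.

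The short NRXN3 entry Nfu_g_1_009720 stood on the other side. It had 365, 356, 348 and 404 counts in the wild libraries, against 196, 250, 240 and 269 in the captive ones. This was 25.8, 24.9, 23.9 and 28.0 CPM in wild brains, against 16.9, 19.1, 19.3 and 18.8 CPM in captive brains. The groups did not overlap, but the distance between them was small beside that of NRXN3B. The means were 25.6 ± 1.75 CPM in wild brains and 18.5 ± 1.11 in captive ones (SD, n = 4 each), a log2 fold change of 0.47 (SE 0.08), or 1.38-fold. With the trend of fold changes on transcript length removed, the log2 fold change was 0.33.

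The scaffold entry, RIMS1A (Nfu_g_1_012570), showed the widest gap of the 4. It had 18, 30, 22 and 31 counts in the wild libraries, against 534, 643, 502 and 681 in the captive ones. In CPM it stood at 1.27, 2.096, 1.51 and 2.15 in wild brains, against 46.0, 49.1, 40.4 and 47.6 in captive brains. The entry was therefore detected in every wild brain, but at counts where counting error is large: 18 counts have an exact 95% Poisson interval of 10.7 to 28.4, which covers counting error only. The means were 1.76 ± 0.43 CPM in wild brains and 45.8 ± 3.78 in captive ones (SD, n = 4 each), a log2 fold change of -4.70 (SE 0.15), or 25.9-fold lower. In wild fish the coefficient of variation was 24.7%, close to the 19.9% of counting error alone. Of the 19517 entries tested, 31 had a lower fold change than RIMS1A, and 486 a lower one than NRXN3B. The groups did not overlap in any of the 4 entries, and 39.8% of all entries tested had groups that did not overlap (19.2% with wild above captive fish and 20.7% with wild below). Since these values chose the entries, nothing is read from that count.

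**Figure D1:**
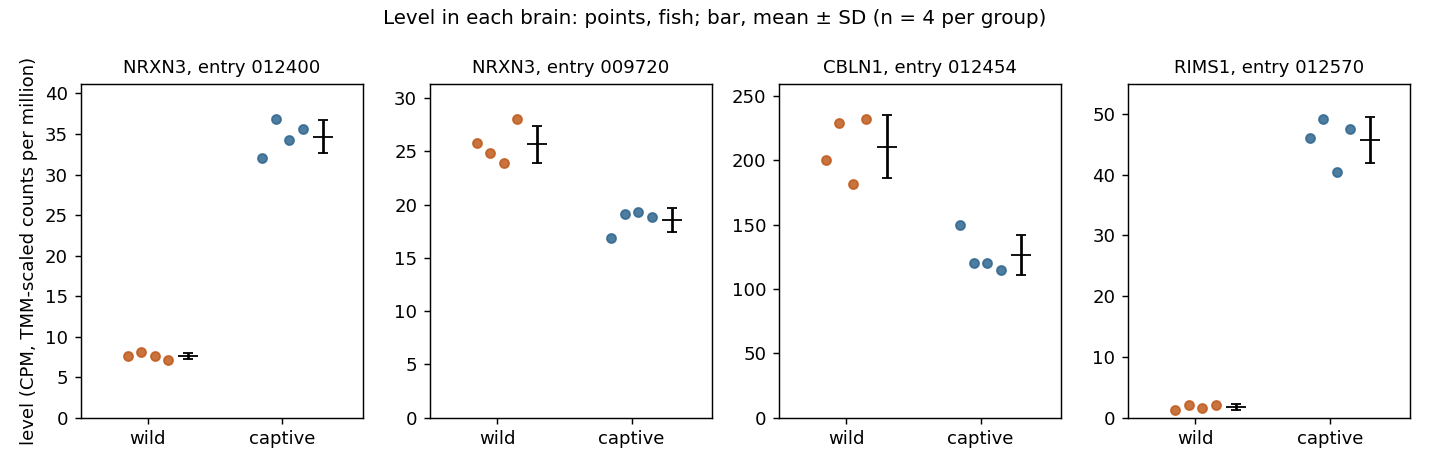
Level of each of the 4 entries in every fish, in CPM on an axis from 0, with wild fish on the left and captive fish on the right of each panel, and the mean ± SD (n = 4 per group) beside the points. Panel titles give the last part of the identifier. NRXN3B and RIMS1A lie near the bottom of the axis in wild brains, at means of 7.61 and 1.76 CPM, while the short NRXN3 entry and CBLN1 lie above the captive fish.

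Per kilobase of transcript the order of the 4 entries differed between the groups. In wild fish the mean levels were 337 ± 38.9 RPKM for CBLN1, 84.6 ± 5.77 RPKM for the short NRXN3 entry, 1.92 ± 0.10 RPKM for NRXN3B and 0.90 ± 0.22 RPKM for RIMS1A (SD, n = 4). In captive fish they were 202 ± 25.2 RPKM for CBLN1, 61.1 ± 3.68 RPKM for the short NRXN3 entry, 23.5 ± 1.95 RPKM for RIMS1A and 8.74 ± 0.51 RPKM for NRXN3B (SD, n = 4). RIMS1A and NRXN3B thus changed places, and no 2 neighbours in either order overlapped between fish. Among all entries tested, ranked by mean RPKM, RIMS1A lay above 16.5% of them in wild and above 81.4% in captive brains. NRXN3B lay above 26.3% in wild and 55.4% in captive brains. The CBLN1 entry Nfu_g_1_012454 stayed near the top, above 99.05% in wild and 98.6% in captive brains. The short NRXN3 entry lay above 95.7% in wild and 94.0% in captive brains. A level per kilobase of a model as short as 303 nt depends strongly on where reads can fall within it, and its place above the longer NRXN3 models was not tested for that.

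The remaining entries of the same names and families were not among the 4 picked entries and were tested. Their lists were, however, also chosen with earlier results of these data known. Of these entries, 8 of 9 were lower in wild brains, 1 was higher, and none failed the threshold of an adjusted p under 0.05. Over all entries tested, 41.6% passed that threshold, 19.8% higher and 21.8% lower in wild brains, and over the 7344 entries with a name it was 65.9%. The 9 entries had a median log2 fold change of -0.63, against 0.04 over all entries tested. With the length trend removed, 5 of the 9 were lower and 2 higher, and over all 19517 entries tested 4049 were lower and 2978 higher. Of these 9 entries, 4 have their name only from the table chosen in part on these libraries. Neither the number that passed nor the direction of the 9 is therefore independent evidence.

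The longest NRXN3 entry, Nfu_g_1_005072 with a model of 7836 nt, carried most NRXN3 reads and differed little. It had 232 ± 11.97 CPM in wild brains and 277 ± 7.24 in captive ones, a difference of -0.25 on the log2 scale (SE 0.05, adjusted p = 0.0038 from edgeR's quasi-likelihood test), and every wild fish lay below every captive fish. With the length trend removed its log2 fold change was -0.07 (adjusted p = 0.31), so that call was lost. The other NRXN3 entry, Nfu_g_1_012269, whose fish symbol is NRXN2 (1 OF 3), was sparse. It had 2.42 ± 0.47 CPM in wild brains and 6.01 ± 0.71 in captive ones and fell by 1.31 on the log2 scale (SE 0.19, adjusted p = 0.00046). Summed over the 4 NRXN3 entries, the level was 268 ± 11.03 CPM in wild brains and 336 ± 7.03 in captive ones, and the sum is mainly that of the longest entry.

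The 3 entries named CBLN1 did not move together. Nfu_g_1_020480, with a model of 639 nt, rose to 131 ± 12.9 CPM in wild brains, against 99.9 ± 12.3 CPM in captive brains (log2 fold change 0.39, SE 0.10, adjusted p = 0.0093), the same direction as Nfu_g_1_012454. Nfu_g_1_003056, the one whose fish symbol is CBLN1, fell to 2.78 ± 1.67 CPM in wild brains, against 18.2 ± 4.19 CPM in captive brains (log2 fold change -2.71, SE 0.36, adjusted p = 0.00029). Its wild counts were 29, 71, 45 and 15, against 177, 187, 287 and 291 in captive libraries, and the groups did not overlap. The sum over the 3 entries was 344 ± 33.5 CPM in wild brains and 244 ± 24.3 in captive ones, mostly from the 2 abundant entries. C1QL3 (Nfu_g_1_023395), a related secreted C1q-like protein of synapses, fell by 1.03 (SE 0.16, adjusted p = 0.00071), with 34.7 ± 9.28 CPM in wild brains and 71.0 ± 7.48 in captive ones.

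All 3 entries named RIMS1 were lower in wild brains, but by very different amounts. Nfu_g_1_014256 (2837 nt) had 34.4, 39.0, 34.7 and 44.5 CPM in wild brains, against 88.45, 99.6, 84.5 and 92.2 CPM in captive brains, and fell by 1.26 (SE 0.09, adjusted p = 5.2e-06). Nfu_g_1_014931, the longest at 6551 nt and the most abundant, had 316 ± 27.1 CPM in wild brains and 368 ± 16.3 in captive ones and fell by 0.22 (SE 0.07, adjusted p = 0.026). RIMS2 (Nfu_g_1_017363), a related RIM scaffold, had 199.6 ± 4.46 CPM in wild brains and 218 ± 1.53 in captive ones and fell by 0.13 (SE 0.04, adjusted p = 0.036). The calls of Nfu_g_1_014931 and RIMS2 are weak. That of Nfu_g_1_014931 was lost without wild fish 3 or 7 or captive fish MZM_0410_125 or MZM_0410_127 (adjusted p 0.063, 0.071, 0.066 and 0.053), under upper quartile scaling (0.068) and with the length trend removed (0.22). That of RIMS2 was lost without wild fish 3 or 5 or captive fish MZM_0410_125 or MZM_0410_127 (adjusted p 0.074, 0.089, 0.073 and 0.056), under upper quartile scaling (0.17) and under limma-trend (0.058), and with the length trend removed it turned to 0.13 higher (adjusted p = 0.046). The summed level of the 3 RIMS1 entries was 356 ± 31.98 CPM in wild brains and 505 ± 25.8 in captive ones.

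**Figure D2:**
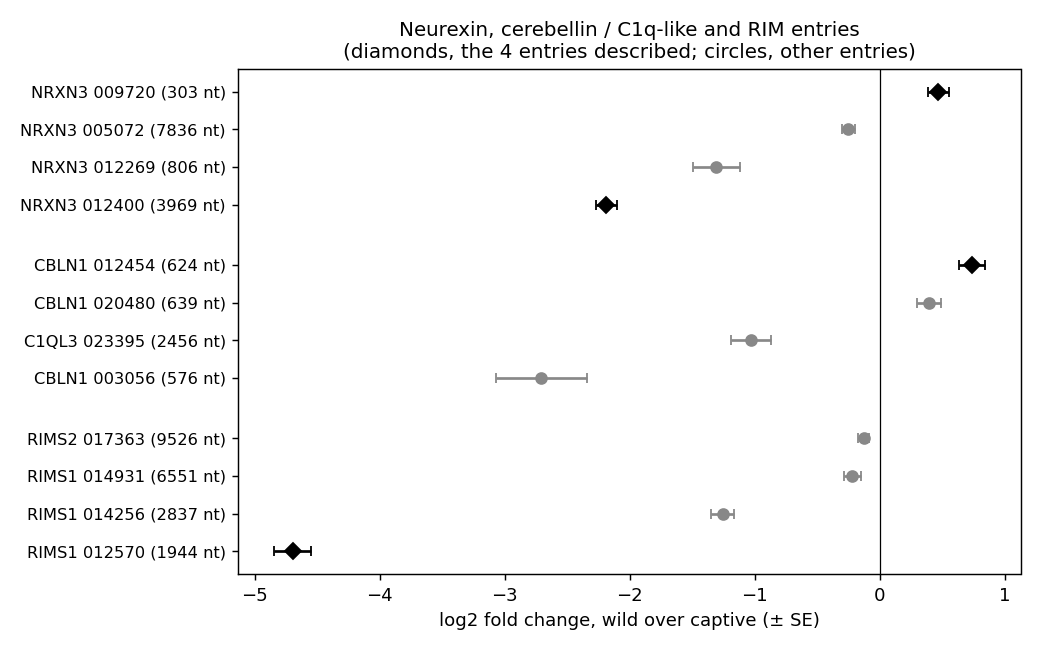
Log2 fold change of wild over captive fish with its SE for 12 of the 13 tested entries named as neurexins, cerebellins or C1q-like proteins, and RIM proteins, each labelled with the last part of its identifier and its transcript length. Diamonds are the 4 entries described and circles 8 others, and within a family the values run from 0.47 to -2.19 for neurexins, 0.74 to -2.71 for cerebellins and C1q-like proteins, and -0.13 to -4.70 for RIM proteins.

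The make-up of each name over its copies also differed between the groups. Within the summed RPKM of the RIMS1 entries, RIMS1A held 1.43% ± 0.23 in wild and 21.0% ± 0.61 in captive brains (SD, n = 4 each). The longest RIMS1 entry held 77.1% ± 0.90 in wild and 50.2% ± 0.88 in captive brains. Within NRXN3, NRXN3B held 1.61% ± 0.15 in wild and 7.76% ± 0.26 in captive brains, and the short entry 71.0% ± 1.66 in wild and 54.2% ± 1.11 in captive brains. The NRXN3 shares rest largely on that short model, whose level per kilobase is uncertain as stated above. Summed over the NRXN3 entries, the RPKM was 119 ± 5.65 in wild and 113 ± 4.57 in captive brains, whereas the summed CPM was lower in wild brains. Within CBLN1, Nfu_g_1_012454 held 61.6% ± 2.16 in wild and 51.8% ± 1.53 in captive brains. The shares of the 4 entries follow from the values that chose them and are given as a description, and the assignment of reads between the copies was not tested.

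**Figure D3:**
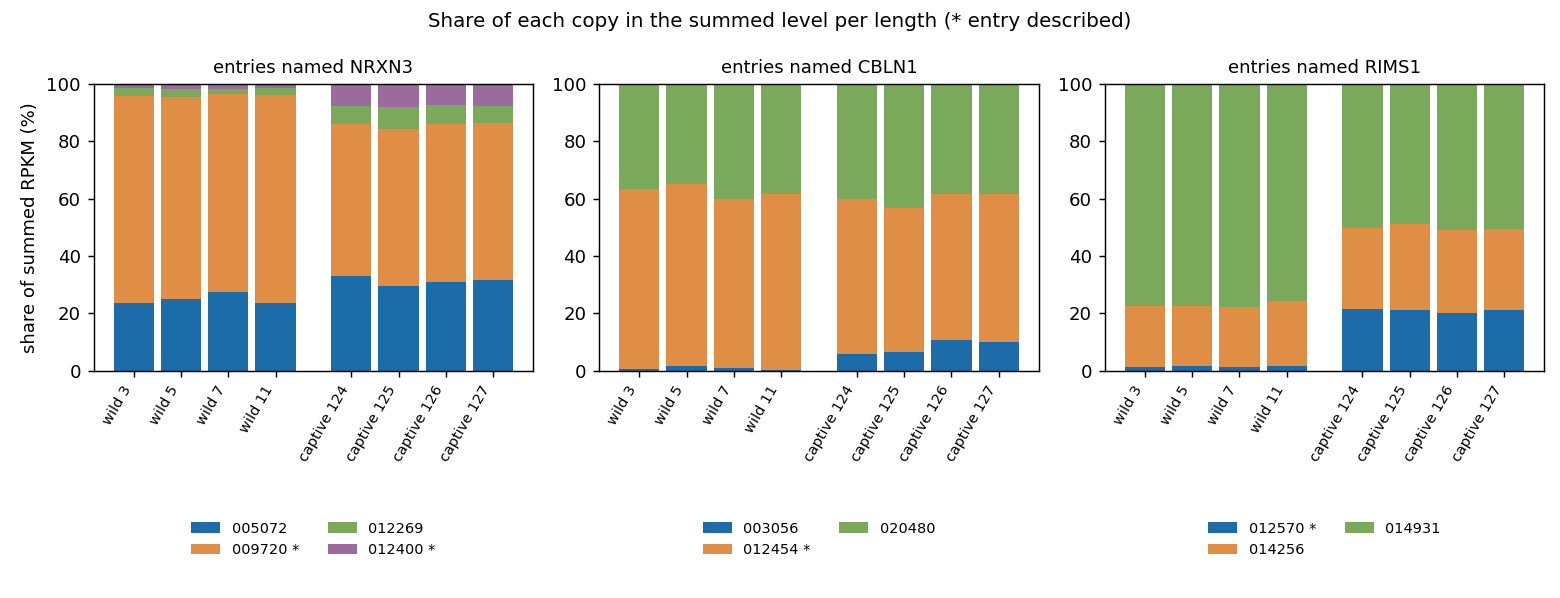
Share of each entry in the summed RPKM of all entries of the same name, in percent, as 1 stacked bar per fish with the 4 wild fish on the left and the 4 captive fish on the right of each panel. Asterisks mark the 4 entries described. The bars of a group look alike, and RIMS1A holds 1.15% to 1.64% in wild and 20.1% to 21.4% in captive brains.

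The fold change differed with transcript length across all entries, but not in a steady order. In the decile of tested entries with the shortest models the median log2 fold change was 0.16, and in the decile with the longest it was -0.26. In between, the medians were 0.08, 0.04, 0.08, 0.12, 0.12, 0.09, 0.04 and -0.05 from shorter to longer models, so that they were negative only in the last 2 of the 10 deciles. The short NRXN3 entry and the CBLN1 entry Nfu_g_1_012454, the higher pair, both lie in the shortest decile. Among the 219 tested entries within 10% of the length of the short NRXN3 entry, 43 had a higher log2 fold change, and the median was 0.18. Among the 558 entries of like length to Nfu_g_1_012454, 39 had a higher one, with a median of 0.16. NRXN3B and RIMS1A do not lie in the longest decile: among entries of like length the median was 0.08 for NRXN3B and 0.09 for RIMS1A, with 34 of 1653 entries lower than NRXN3B and 2 of 1329 lower than RIMS1A. With the length trend removed the log2 fold changes were -2.26 for NRXN3B, -4.79 for RIMS1A and 0.63 for CBLN1 entry Nfu_g_1_012454.

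**Figure D4:**
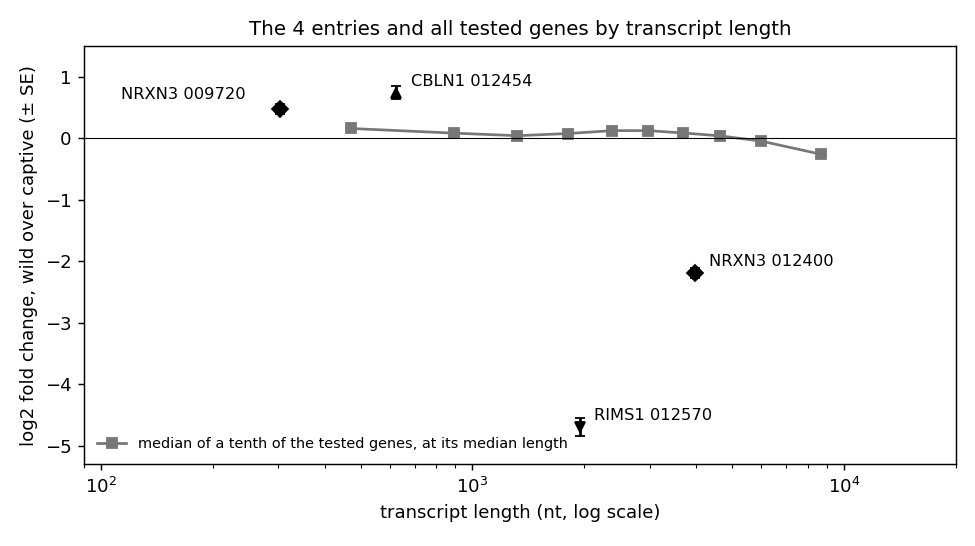
Log2 fold change of wild over captive fish (with SE) of the 4 entries against transcript length on a log axis. Grey squares give the median log2 fold change of each decile of all tested entries, placed at its median length, with 0.16 at the short end, 0.04 to 0.12 in the next 7 deciles, and -0.05 and -0.26 at the long end.

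Of the partners that neurexins bind, and of related adhesion proteins, 19 of 30 tested entries were lower in wild brains, 4 were higher and 7 did not pass. The median log2 fold change was -0.29 against 0.04 over all entries. Among all entries with a name, 33.4% were called lower and 32.5% higher. With the length trend removed, 13 of the 30 were lower and 5 higher, and over all 19517 entries tested 4049 were lower and 2978 higher. NLGN2 (Nfu_g_1_009588), a postsynaptic neuroligin of inhibitory synapses that binds neurexins, had 21.0 ± 2.85 CPM in wild brains and 81.3 ± 4.32 in captive ones and fell by 1.95 (SE 0.09, adjusted p = 5.5e-07). CLSTN2 (Nfu_g_1_003771), a calsyntenin of the postsynaptic membrane, fell by 1.14 (SE 0.09, adjusted p = 1.2e-05). The other CLSTN2 entries are given after their values were seen. Nfu_g_1_019870 fell by 0.85 (SE 0.10, adjusted p = 0.00010), and the more abundant Nfu_g_1_020050 had a log2 fold change of -0.25 that did not pass (adjusted p = 0.071). CLSTN1 (Nfu_g_1_010215), the most abundant of the list, had 1263 ± 70.1 CPM in wild brains and 1530.3 ± 17.6 in captive ones and fell by 0.28 (SE 0.05, adjusted p = 0.0014). PTPRF (Nfu_g_1_000865), a receptor phosphatase of the presynaptic membrane, rose by 0.49 on the log2 scale (SE 0.11, adjusted p = 0.0063). The other PTPRF entry, Nfu_g_1_012865, given here after its value was seen, fell by 0.40 (SE 0.06, adjusted p = 0.00044). LRRTM1 (Nfu_g_1_018403), a postsynaptic ligand of neurexins, had 68.6 ± 3.75 CPM in wild brains and 55.6 ± 4.42 in captive ones (log2 fold change 0.30, SE 0.07, adjusted p = 0.0069).

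Around RIM in the active zone, 17 of 23 tested entries were lower in wild brains, 2 were higher and 4 did not pass (median log2 fold change -0.37). The shares over all named entries were 33.4% lower and 32.5% higher. RIMBP2, a RIM-binding protein that links RIM to calcium channels, has 3 tested entries under that human name. Of these, 2 were lower in wild brains and 1 was higher. Nfu_g_1_006664 has the fish symbol RIMBP2 (3 OF 4), so the annotation may hold a copy that is not counted here. Nfu_g_1_006337 had 8.61 ± 0.34 CPM in wild brains and 28.3 ± 1.48 in captive ones and fell by 1.72 (SE 0.08, adjusted p = 5.5e-07), while Nfu_g_1_006664 rose by 0.25 (SE 0.05, adjusted p = 0.0044). The remaining RIMBP2 entry, Nfu_g_1_009036, also given after its value was seen, had 12.4 ± 1.64 CPM in wild brains and 40.8 ± 11.2 in captive ones and fell by 1.72 (SE 0.20, adjusted p = 9.6e-05). PPFIA1 (Nfu_g_1_007747), a liprin of the active zone, fell by 1.24 (SE 0.08, adjusted p = 3.5e-06). LIN7A (Nfu_g_1_011975), part of a complex that neurexins bind through CASK, rose by 0.31 (SE 0.09, adjusted p = 0.021). The most abundant entry, APBA2 (Nfu_g_1_004073), an adaptor protein, had 525 ± 54.3 CPM in wild brains and 515 ± 24.0 in captive ones, and the difference did not pass (adjusted p = 0.79). The call of LIN7A was lost without wild fish 5 or 11 or captive fish MZM_0410_124 or MZM_0410_127, each of which leaves 1 entry higher, and with the length trend removed (adjusted p = 0.099). With that trend removed, 11 entries of the active zone list were lower, as were 4049 of all 19517 entries tested.

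All 12 tested entries for presynaptic calcium channels, which RIM brings to the release site, were lower in wild brains, with a median log2 fold change of -0.59. By comparison, 33.4% of all named entries were called lower. Of the 12 entries, 6 have their name only from the table chosen in part on these libraries. CACNB4 (Nfu_g_1_014043), a cytoplasmic channel subunit, had 31.2 ± 6.49 CPM in wild brains and 82.6 ± 3.33 in captive ones and fell by 1.41 (SE 0.13, adjusted p = 2.3e-05). CACNA2D1 (Nfu_g_1_008028), an auxiliary subunit, fell by 1.14 (SE 0.09, adjusted p = 8.9e-06). The most abundant, Nfu_g_1_019743, is named CACNA1B, a pore-forming subunit, and has the fish symbol CACNA1AA. It fell by 0.33 (SE 0.06, adjusted p = 0.0016), and with the length trend removed its log2 fold change was 0.03 (adjusted p = 0.71). With that trend removed 8 of the 12 entries were still called lower, as were 4049 of all 19517 entries tested. The other entries named CACNA1B, both given after their values were seen, fell more. Nfu_g_1_007075 fell by 2.04 (SE 0.19, adjusted p = 2.5e-05) and the sparse Nfu_g_1_014529 by 2.16 (SE 0.45, adjusted p = 0.0040).

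Among the proteins of the vesicle and its fusion, 20 of 34 tested entries were lower in wild brains, 7 were higher and 7 did not pass (median log2 fold change -0.34), and with the length trend removed 4 were higher. CPLX2 (Nfu_g_1_016652), a complexin that binds the fusion complex, had 2.75 ± 0.07 CPM in wild brains and 17.7 ± 4.26 in captive ones and fell by 2.69 (SE 0.18, adjusted p = 3.6e-06). SYN1 (Nfu_g_1_009195), a synapsin that clusters vesicles, fell by 1.99 (SE 0.11, adjusted p = 8.6e-07). SV2B (Nfu_g_1_012786), a glycoprotein of the vesicle membrane, had 153 ± 14.1 CPM in wild brains and 91.9 ± 16.97 in captive ones and rose by 0.74 (SE 0.12, adjusted p = 0.00098). Nfu_g_1_009962, named VAMP1 but with the fish symbol VAMP4, rose by 0.43 (SE 0.07, adjusted p = 0.0012). Of the other entries named VAMP1, both given after their values were seen, Nfu_g_1_005420 fell by 0.41 (SE 0.07, adjusted p = 0.0012) and Nfu_g_1_001152 had a log2 fold change of -0.23 that did not pass (adjusted p = 0.22). Over all 7 lists without the 4 entries described, 76 of 108 were lower, 14 were higher and 18 did not pass. The groups did not overlap in 75 of the 108 on the lower side and in 13 on the higher side. Among all 19517 entries tested, the groups did not overlap in 20.7% on the lower side and in 19.2% on the higher side. Of the 108 entries, 56 have their name only from the table chosen in part on these libraries, and over all entries with a name 33.4% were called lower and 32.5% higher. With the length trend removed 57 were lower and 14 higher, and over all 19517 entries tested 4049 were lower and 2978 higher. Entries with a name were called more often than all entries (65.9% against 41.6%). For named entries alone, the share without overlap and the counts with the length trend removed are not given here. On those 2 measures the lists, in this and the earlier paragraphs, are therefore set against a background that is not like them.

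**Figure D5:**
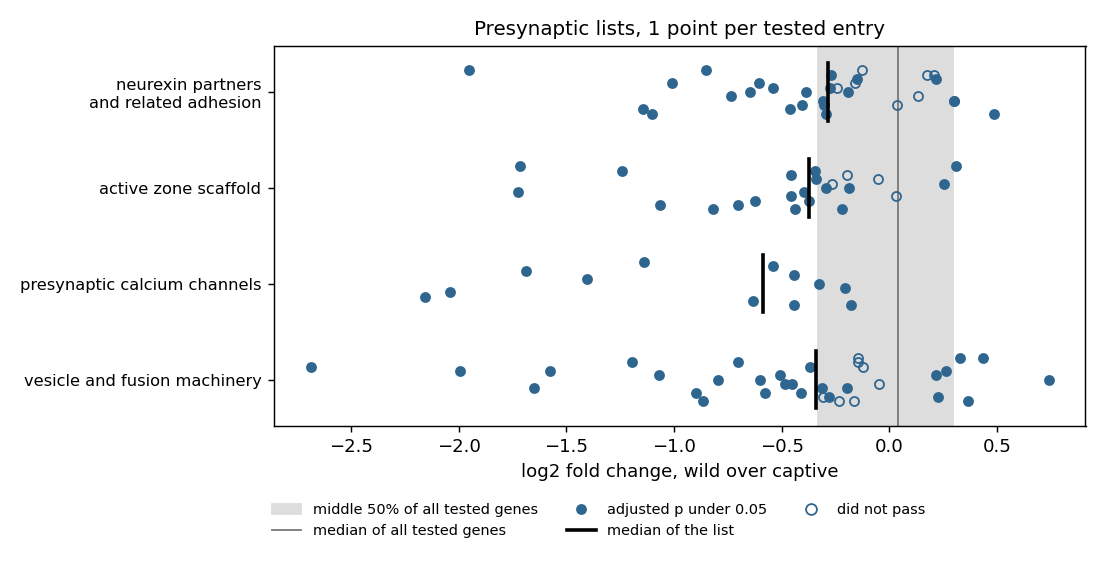
Log2 fold change of wild over captive fish for every tested entry of the 4 lists of presynaptic partners (1 point each, spread vertically only for legibility). Filled points passed an adjusted p under 0.05, black bars are list medians (-0.29, -0.37, -0.59 and -0.34 from top to bottom), and the grey band and line are the middle 50% and the median (0.04) of all tested entries.

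In whole brain, fewer cells of a type and less RNA per cell cannot be told apart, so the markers of cell types that could carry these genes were measured beside them. Over all named entries 32.5% were called higher and 33.4% lower. Of 7 entries for cerebellar granule cells, the source of cerebellin 1 in mouse, 6 were higher in wild brains and 1, GABRA6, was lower. Their summed level was 1753 to 1891 CPM in wild brains and 1207 to 1526 in captive ones, and none was at 0. The CBLN1 entry Nfu_g_1_012454 amounted to 11.48% ± 1.47 of that sum in wild and 9.53% ± 0.44 in captive brains (SD, n = 4 each). On this ratio the groups overlapped, with 9.76% to 13.1% in wild and 8.90% to 9.87% in captive brains. The overlap rested on wild fish 7 at 9.76%, and the other wild fish lay at 10.8% to 13.1%. Most of the granule cell sum came from NEUROD1 and the ZIC1 entries, with wild means of 697, 400 and 319 CPM. GABRA6 had 96.1 ± 7.60 CPM in wild brains and 112 ± 5.92 in captive ones (log2 fold change -0.22), so the ratio depends on which markers are summed. The ratio was added after the data were seen, and ratios to other sums of these markers were not tested. Whether these markers are confined to granule cells was not tested. Of the other entries named CBLN1, Nfu_g_1_020480 was also higher in wild brains and Nfu_g_1_003056 was lower (log2 fold changes 0.39 and -2.71). Of 3 entries for Purkinje cells 1 was higher and 1 lower, at 240.5 to 313 CPM in wild brains and 234 to 351 in captive ones. Mature neuron entries, 13 in number, were 4 higher and 4 lower. The higher ones were entries of ENO2 and STMN2, and the lower ones entries of ELAVL4, NEFM, RBFOX3 and MAP2. Their summed level of 3380.0 to 3862 CPM in wild brains overlapped that of 3482 to 3995 CPM in captive brains. Radial glia and astrocyte entries were 4 of 6 higher and 1 lower, with 5124 to 7027 CPM in wild brains and 3577 to 4935 in captive ones. S100B carried most of that sum, with means of 3919 CPM in wild and 2206 in captive brains. The lower entry, SLC1A2, given after its value was seen, fell by 2.24 (SE 0.12, adjusted p = 7.7e-07), with 186 CPM in wild and 875 in captive brains. Among the higher entries, Nfu_g_1_018689 is named FABP7 but has the fish symbol SMPDL3A. Oligodendrocyte entries were 1 of 8 higher and 3 lower, with 4864 to 7609 CPM in wild brains and 7357 to 11383 in captive ones, and erythrocyte entries 1 of 3 higher and 2 lower, with 100.6 to 122 CPM in wild brains and 156 to 193 in captive ones. No named entry was found for the microglia markers. Names cover only 7344 of the 19517 entries tested, so a marker without a named entry can still be present. For the same reason the Purkinje entries were only those of CA8 and ITPR1, and the erythrocyte entries those of ALAS2 and SLC4A1. The part of these shifts in the levels of the 4 entries was not tested.

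The named genes with profiles most like each entry were found by the root mean square difference of log2 CPM, centred on the mean of each gene, over the 8 fish and 7343 named genes. For RIMS1A they were BAHCC1 (0.20), WDFY3 (0.30) and EP400 (0.32), with wild means between 1.66 and 6.18 CPM. BAHCC1 had a mean of 2.70 CPM in wild brains and 58.3 in captive ones, and EP400 1.66 CPM in wild brains and 57.4 in captive ones. For NRXN3B they included PACS2 (0.13) and CELF5 (0.14), with log2 fold changes of -2.24 and -2.18. For CBLN1 entry Nfu_g_1_012454 they were CCNG2 (0.10), UBA3 (0.11) and SPSB3 (0.11). For the short NRXN3 entry they were KDM2B, ATP6V1F and KLHL42 (each 0.06). With 2 groups that stand apart, nearness on this measure is set mainly by the size of the difference between the groups.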

How the data were processed

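Counts per gene, RPM and RPKM were deposited by the authors. Per the submitters' processing notes and the study's methods, reads of directional poly(A) libraries were converted with bcl2fastq 2.20.0.422, mapped with TopHat2 2.1.0 to the hard-masked *N. furzeri* genome (NFINgb) with 1 alignment kept per read, and counted on the reverse strand with featureCounts 1.6.5, without pooling. The deposited RPM values equal counts divided by the column total to within 5e-12. The ratio of the authors' RPM to their RPKM gave the transcript lengths. Depth was 11814586 to 14541119 counts per library, and no libraries were identical. The labels number separate brains without naming ponds, tanks or litters. The p-values set the difference between groups against the spread between these fish, estimated partly over all genes. They do not cover any spread between ponds, tanks or litters.

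The counts were analysed in R 4.3.3 with edgeR 4.0.16 (TMM, at least 1 count in all 8 libraries, quasi-likelihood F-test of wild over captive, Benjamini-Hochberg over 19517 entries, threshold 0.05). The fit was also run on simulated counts with the same dispersion for every gene. That run cannot show how the fit handles genes that differ in spread, and nothing is read from it here. CPM and RPKM given in the text are TMM-scaled. Each SE of a log2 fold change is the absolute fold change divided by the square root of the F statistic. The SEs of DESeq2 were larger for the 4 entries: 0.115 for NRXN3B, 0.105 for the short NRXN3 entry, 0.110 for Nfu_g_1_012454 and 0.183 for RIMS1A. Figures were drawn with matplotlib 3.10.9. Human gene names were taken from the supplementary tables, without any values. The 4 entries, the 7 pathway lists (neurexins, cerebellins and C1q-like ligands, RIM proteins, neurexin partners and related adhesion proteins, active zone scaffold, presynaptic calcium channels, vesicle and fusion machinery) and the 7 cell type lists were chosen with earlier results of these data known. Named genes are the 4 entries, all other tested entries of the 3 families, in each other list the 2 entries of smallest p in each direction and the one of highest mean CPM, and the 3 nearest profiles of each entry. A few genes that this rule names are not reported here, but they stay in the counts of their lists. Alternatives were DESeq2 1.42.0, RLE and upper quartile scaling, no count filter, filterByExpr, a lowess offset for transcript length, limma-trend (limma 3.58.1) on log2(RPM + 0.5), thinning to the smallest library, the deposited RPKM, and leaving out each fish. The ratio of CBLN1 entry Nfu_g_1_012454 to the granule cell markers was added after the data were seen. Sequences and coordinates are not used here, because the reference at hand uses other identifiers (0 matched).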

Additional observations from a re-analysis of the deposited data

Results flagged for a closer look

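Among the 4 entries and the entries named in the 3 families and 4 lists, 3 of 62 groups of 4 fish held a fish far from the other 3 by Dixon's criterion at the 95% level, a criterion that chance meets in about 1 of 20 groups. In CBLN1 Nfu_g_1_012454, captive fish MZM_0410_124 had 149.6 CPM, and the next captive fish 120.4 CPM (gap over range 0.846). In the NRXN3 entry Nfu_g_1_012269, wild fish 7 had 1.72 CPM, and the other wild fish 2.62 to 2.73 CPM (gap over range 0.892). In NLGN2 Nfu_g_1_009588, captive fish MZM_0410_126 had 74.8 CPM, and the other captive fish 83.2 to 83.8 CPM (gap over range 0.931).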

How the results depend on the processing

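No paired analysis was made, because the wild and captive fish are separate animals that the design does not pair. The 4 entries kept the direction of their difference under all 16 alternatives. The log2 fold changes of NRXN3B and RIMS1A moved to -2.09 and -4.35 under limma-trend on log2(RPM + 0.5), where the pseudocount pulls low levels together, and that of the short NRXN3 entry to 0.33 with the length trend removed. Leaving out 1 fish gave -2.24 to -2.16 for NRXN3B and 0.41 to 0.50 for the short NRXN3 entry. It gave 0.69 to 0.81 for CBLN1 entry Nfu_g_1_012454 and -4.81 to -4.57 for RIMS1A. Over all entries tested it gave 2933 to 3685 calls higher and 3845 to 4124 lower in wild fish, against 3864 and 4251 with all fish. With the length trend removed 4 counts changed by over 1.5 times: 5 entries of the 3 families were lower and 2 higher, 11 of the active zone list were lower, and 4 of the vesicle list were higher. Over all entries tested that fit called 4049 lower and 2978 higher. Without 1 fish, the active zone list held 1 to 2 entries that were higher. Removal of the length trend also turned RIMS2 to 0.13, the CACNA1B entry Nfu_g_1_019743 to 0.031 and the uncalled APBA2 to -0.0100, and without 1 fish APBA2 ranged from -0.015 to 0.093. Of 432 comparisons of the other named entries with an alternative, 408 kept direction and call, 18 lost the call and 6 changed sign. The cause was not tested. Depth limits RIMS1A most, with 18 to 31 counts per wild library.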
